A study of Mus musculus with 3 samples.

Results

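Cytosolic ribosomal protein genes were taken as every gene whose symbol starts with Rpl or Rps followed by a number in the standard nomenclature, together with Rplp0, Rplp1, Rplp2 and Rpsa. The rule used symbols alone and found 84 genes among the 31253 rows of the count tables, 32 of the small ribosomal subunit and 52 of the large one. Mitochondrial ribosomal proteins, kinases with similar symbols and pseudogenes were not members. All 84 had a position in the GENCODE M21 annotation of GRCm38.

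The counts came from droplet single-cell RNA sequencing of jaw tissue, with 1 library each for Ctrl, 1d and 7d. Each library pooled 8 male wild-type C57BL/6 mice aged 10 weeks. The 1d and 7d mice had received 10 Gy to the head and neck and were killed 1 or 7 days later. Minced tissue was digested with collagenase II, frozen and thawed before capture. With 1 library per group there was no replicate and no test, and the 95% intervals cover counting error only. Values are counts of unique molecular identifiers (UMIs), each standing for 1 captured RNA molecule. They are given as a share of all UMIs, or as counts per 1000000 UMIs (CPM) summed over the cells of a class. A share or a CPM is a level relative to the other RNA of the same cells, so less ribosomal protein RNA and more of other RNA cannot be told apart.

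Each ribosome carries 1 set of these proteins around its RNA, and the cell makes them in matched amounts. Their mRNAs are short and abundant, and most begin with a run of pyrimidines at the cap, the 5′ terminal oligopyrimidine (TOP) motif, through which growth signals control their translation as a group. Growing progenitors of blood cells build many ribosomes, and neutrophils and red cells stop building them as they mature. Inherited defects of single members, above all RPS19, cause Diamond-Blackfan anaemia, in which red cell precursors fail.

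The start sites of 7 members that carry the results below are shown, each with 40 bases before and 20 bases after the start, from RefSeq on GRCm38.p6, 5′ to 3′ on the transcribed strand. The capitals mark a run of at least 5 C or T letters that begins with C within 5 bases of the start, as a TOP motif would. Rps27 and Rps9 were the members least reduced in mature neutrophils, Rps18 and Rpl10a were among the most reduced, and Rps19, Rps15 and Rps27l stood out between libraries.
Rps27, chr3:90213629-90213688, minus strand: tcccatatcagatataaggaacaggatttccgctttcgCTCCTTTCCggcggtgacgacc
Rps9, chr7:3704001-3704060, plus strand: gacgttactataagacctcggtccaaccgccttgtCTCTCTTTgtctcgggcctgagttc
Rps18, chr17:33955646-33955705, minus strand: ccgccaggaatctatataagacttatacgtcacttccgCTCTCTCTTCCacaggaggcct
Rpl10a, chr17:28328525-28328584, plus strand: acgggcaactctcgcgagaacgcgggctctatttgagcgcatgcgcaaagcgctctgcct
Rps19, chr7:24884552-24884611, plus strand: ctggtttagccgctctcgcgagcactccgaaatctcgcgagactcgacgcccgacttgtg
Rps15, chr10:80292391-80292450, plus strand: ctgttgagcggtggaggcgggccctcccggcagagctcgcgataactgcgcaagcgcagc
Rps27l, chr9:66946046-66946105, plus strand: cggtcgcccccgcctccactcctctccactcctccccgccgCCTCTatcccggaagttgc

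The run was 9 letters long in Rps27, 8 in Rps9, 11 in Rps18 and 5 in Rps27l, and the windows of Rpl10a, Rps19 and Rps15 held none by this rule. These RefSeq starts lay 0 to 50 bases from the start of the principal GENCODE transcript, so a window without a run may sit beside the start in use. RefSeq windows were matched for 64 of the 84 members. Of their 76 windows, 31 (40.8%) held the run on the transcribed strand, against 18.3% of all 32851 windows. CCGGAA or its complement TTCCGG, the core of an ETS site, occurred anywhere in the 300-base window in 47.4% of member windows and 14.9% of all. TATAAA or TTTATA occurred in 9.21% and 13.6%. TTCCGG can share letters with the pyrimidine run, and a match is a description of letters. Rps27 and Rps18 both had a long run and lay at opposite ends of the neutrophil course below. Whether the run goes with that course over all members was not tested.

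After filtering, 8605, 4917 and 6159 cells of Ctrl, 1d and 7d were kept from libraries of 41048084, 46119700 and 49998293 UMIs. Members took 17.3%, 17.99% and 24.2% of the UMIs of kept cells. These totals rest on which cells each library held, and the values below are therefore within classes. Cells were clustered with the members left out, and class names stand for "-like" cells that share the fixed markers. Clusters that failed the naming rule or were led by mixed genes kept their number. Cluster 6 was led by Chil5, Ceacam10, Ltf and Mmp8 between precursor and mature neutrophils. Cluster 11 was led by Pf4, Muc13, Hoxa9 and Cd34. Clusters 12 and 16 were of stromal lineage, the latter led by Bglap and Ibsp, and cluster 1 was led by haemoglobin genes. The libraries shared 20 (Ctrl and 1d), 24 (Ctrl and 7d) and 12 (1d and 7d) cell barcodes.

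Rpl41, Rps24, Rps29, Rpl37a and Rps20 held most UMIs, 689140, 661492, 639828, 603070 and 502448 over the kept cells of the 3 libraries. Near-copies with rows of their own can take or give reads. Rps27rt, a near-copy of Rps27, had 14728 UMIs, Rpl10-ps3 had 4332, Rpl9-ps6 3425, Rpl36a-ps1 1157 and Rps18-ps5 401. Values of Rps27, Rpl10, Rpl9, Rpl36a and Rps18 are uncertain for that reason, and these counts do not give the size of the error. Copies under other kinds of symbol were not looked for, so other members may be affected too.

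Ribosomal protein mRNA spanned from under 3% to over 30% of the UMIs between cell classes, with the same classes at both ends in each library. T cells were at 32.1%, 32.8% and 32.3% in Ctrl, 1d and 7d, and cluster 11 at 30.5%, 28.9% and 30.6%. Granulocyte progenitors, cells rich in primary granule RNA such as Mpo and Elane, were at 30.4%, 25.5% and 27.7%. At the other end stood mature neutrophils, with 2.73%, 2.68% and 2.78%. The 3 libraries differed by less than 1 percentage point in T cells as a whole and in mature neutrophils as a whole.

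**Figure D1:**
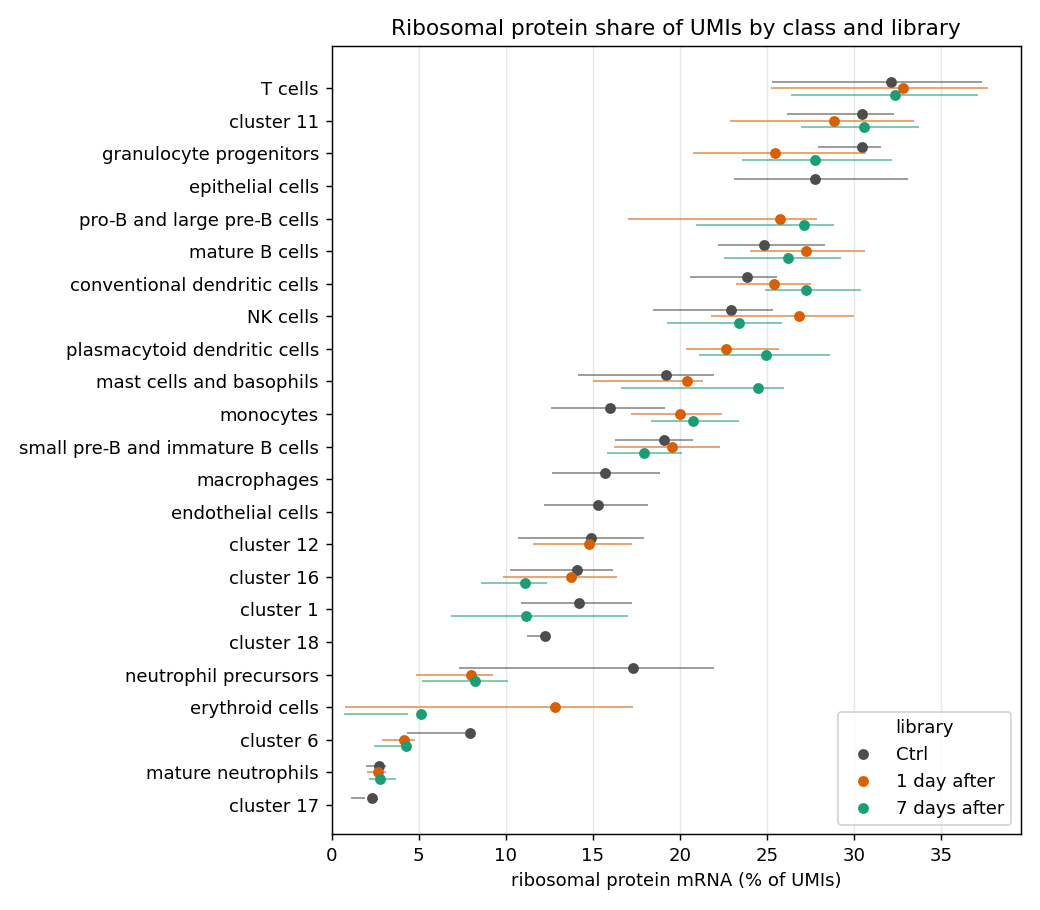
Share of UMIs from the 84 ribosomal protein genes (x axis, percent) in each cell class with at least 30 cells, by library. Points are sums over the cells of a class and lines span the quartiles over its cells. T cells and mature neutrophils sit in nearly the same place in all 3 libraries, while neutrophil precursors and cluster 6 are higher in Ctrl.

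Between these ends, mature B cells held 24.8%, 27.2% and 26.2%, natural killer (NK) cells 22.95%, 26.8% and 23.4%, and conventional dendritic cells 23.8%, 25.4% and 27.2%. Monocytes were lower, at 15.97%, 19.99% and 20.7%. Macrophages and endothelial cells, with at least 30 cells in Ctrl alone, held 15.7% and 15.3% there, and epithelial cells 27.8%. T cells were not uniform. The T cell cluster led by Cd8b1 and Cd8a was at 36.2%, 37.5% and 36.7%, and the one led by Foxp3 was at 24.4%, 26.3% and 25.1%. The gap between these 2 T cell clusters was therefore wider than any difference between libraries within either.

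The members' share differed widely along the neutrophil course. The share went from granulocyte progenitors through neutrophil precursors, which carry secondary granule RNA such as Ltf and Camp, and cluster 6 to mature neutrophils. It was 30.4%, 17.3%, 7.92% and 2.73% in Ctrl. The same stages held 25.5%, 7.98%, 4.17% and 2.68% in 1d, and 27.7%, 8.24%, 4.28% and 2.78% in 7d. Progenitors were 11.2-fold (95% interval 11.1 to 11.2), 9.52-fold (9.41 to 9.62) and 9.97-fold above mature cells. Every step was downward in every library, but the libraries took different paths: in Ctrl the drop was spread over the steps, and in 1d and 7d most of it lay between progenitors and precursors. From progenitors to precursors 72 of 80 members were at least 1.5-fold lower in Ctrl, 81 of 81 in 1d and 81 of 81 in 7d, beside 31.7%, 35.1% and 41.7% of all genes. From precursors to cluster 6 it was 78 of 80, 68 of 81 and 73 of 80 (17.7%, 34.3% and 33% of all genes), and from cluster 6 to mature cells 78 of 82, 59 of 81 and 54 of 78 (38.1%, 32.6% and 21.9%). A mature neutrophil held a median of 49, 71 and 59 member UMIs.

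**Figure D2:**
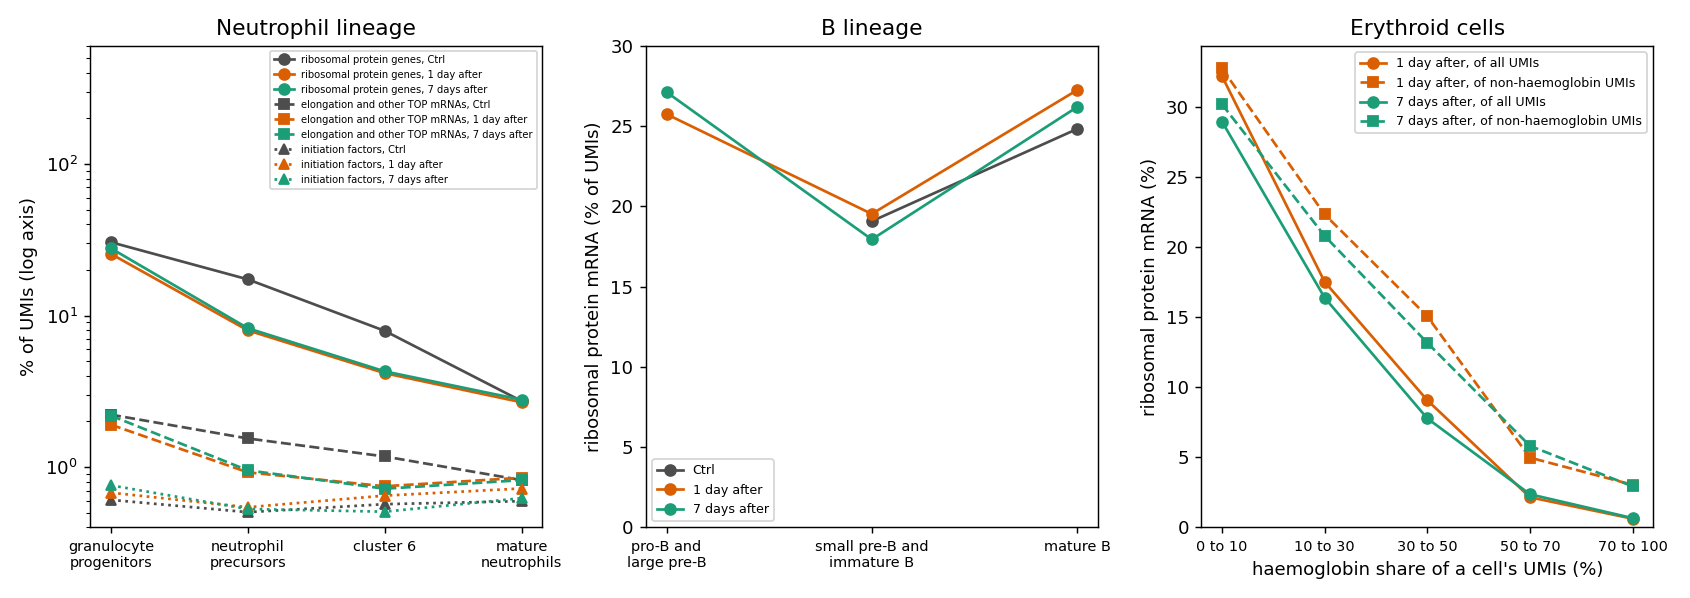
Share of UMIs (percent) along 3 lineages in each library: neutrophil stages on a log axis with the members and 2 other translation lists, B lineage stages, and erythroid cells by their haemoglobin share. Members decline from about 30% to under 3% along the neutrophil stages and with rising haemoglobin, while the initiation list stays near its starting level.

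Nearly every member took part. Between progenitors and mature neutrophils 80 of 81 members with at least 100 UMIs were at least 1.5-fold lower in Ctrl, beside 37.9% of all genes so counted. The counts were 80 of 81 in 1d (58.1% of all genes) and 81 of 81 in 7d (63.1%). The median member was 12.8-fold, 11.4-fold and 12.7-fold lower. On the log2 scale that is -3.68, -3.52 and -3.67, where the median of all genes was 0.08, -1.12 and -1.36. The 1 member higher in mature neutrophils of Ctrl was Rpl3l, a paralogue of Rpl3 best known from heart and skeletal muscle, with 357 UMIs in all and 137 of them in mature neutrophils.

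Rps27 and Rps9 were the exceptions to that drop. Rps27 encodes a zinc finger protein of the small subunit. Its levels were 2322, 2394 and 3248 CPM in granulocyte progenitors of Ctrl, 1d and 7d and 1417, 1685 and 2062 CPM in mature neutrophils. It was 1.64-fold, 1.42-fold and 1.57-fold lower, far from the median of all members. Rps9, a small subunit protein that binds early in assembly, was at 3918, 2986 and 3397 CPM in progenitors and 2120, 1610 and 1814 CPM in mature neutrophils. It was 1.85-fold, 1.85-fold and 1.87-fold lower. Rpl37, by comparison, was 6.37-fold, 4.64-fold and 4.40-fold lower, and Rps13 6.06-fold, 4.63-fold and 5.12-fold.

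At the other extreme, Rpl10a, a protein of the mobile L1 stalk of the large subunit, had 3088, 2523 and 2670 CPM in progenitors. In mature neutrophils it had 33.3, 36.2 and 37.7 CPM. It was 92.8-fold, 69.7-fold and 70.7-fold lower. Rps18, in the head of the small subunit, was 68.1-fold, 51.8-fold and 62.1-fold lower. Rpsa, the small subunit protein also known as the laminin receptor, was 43.5-fold, 49.5-fold and 44.6-fold lower, and Rpl32 49.7-fold, 40.3-fold and 49.8-fold. The members' RNA in mature neutrophils was thus a different mixture from that in progenitors in each library. Rps9 made up 7.78%, 6.02% and 6.52% of it and Rps27 5.20%, 6.29% and 7.42%, where progenitors had 1.29%, 1.17% and 1.23% and 0.763%, 0.940% and 1.17%.

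**Figure D3:**
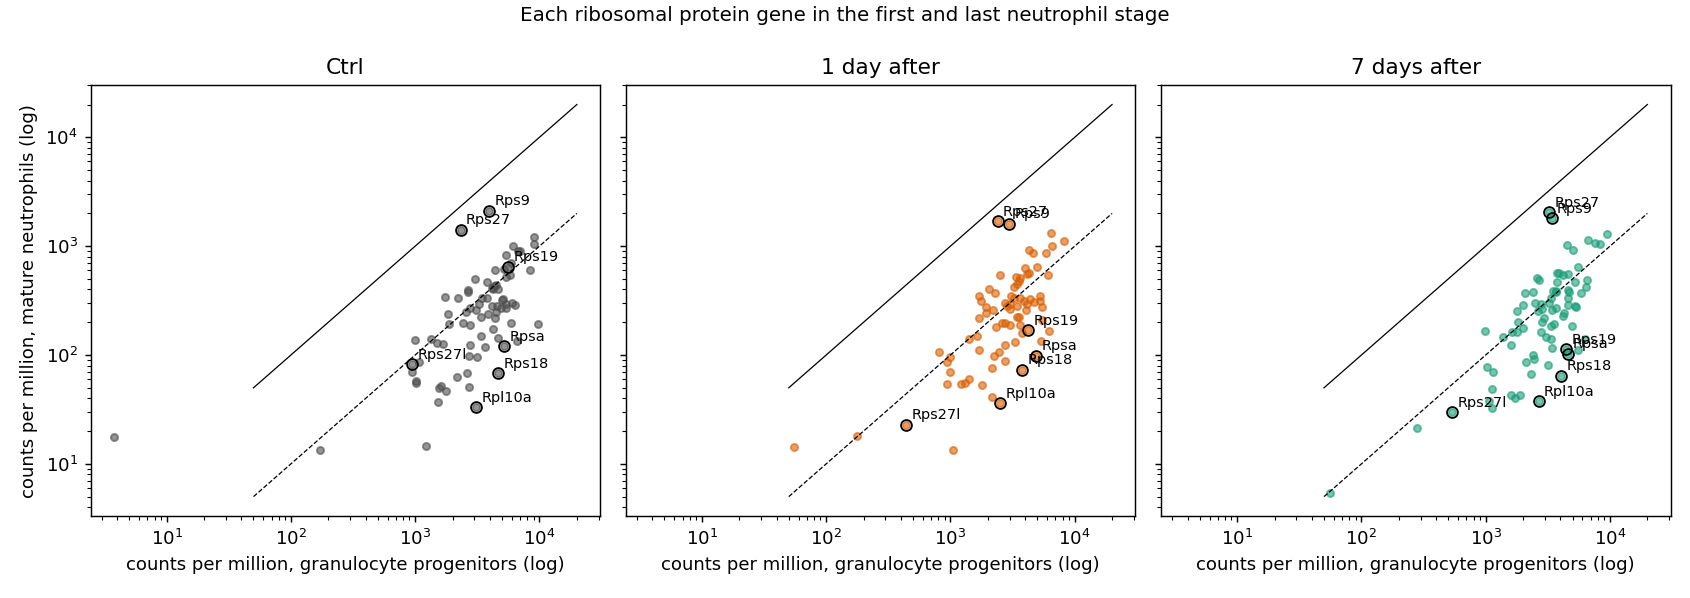
Level of each member (CPM, log axes) in granulocyte progenitors (x axis) and mature neutrophils (y axis), 1 panel per library. The solid line marks equal levels and the dashed line 10-fold lower levels. Rps27 and Rps9 lie close to the solid line in all 3 panels, and Rpl10a and Rps18 lie far below the dashed one.

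Elongation and initiation genes did not share this course to the same extent, while ribosome biogenesis genes came nearer to it. The 17 elongation factors and other TOP mRNAs (such as Eef1a1, which brings aminoacyl-tRNA to the ribosome) went from 2.22%, 1.90% and 2.18% of UMIs in progenitors to 0.821%, 0.851% and 0.820% in mature neutrophils. The 24 initiation factors were at 0.608%, 0.678% and 0.758% in progenitors and 0.596%, 0.723% and 0.624% in mature cells. The 36 ribosome biogenesis genes went from 0.183%, 0.236% and 0.313% to 0.029%, 0.031% and 0.033%. Initiation factors stayed near their share while the ribosomal proteins and the genes that assemble ribosomes did not.

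Along the B lineage the members' share was lower in small pre-B cells than in the stages on either side, where both could be measured (1d and 7d). Pro-B and large pre-B cells held 25.8% in 1d and 27.1% in 7d, and Ctrl had too few for a value. Small pre-B and immature B cells, which rearrange their light chain genes and do not divide, held 19.1%, 19.5% and 17.9% in Ctrl, 1d and 7d. Mature B cells were 1.30-fold, 1.39-fold and 1.46-fold above them. The Ctrl and 7d sums rest on 42 and 38 small pre-B cells, and 1d on 921. With stages taken from the highest marker score of each cell the Ctrl fold was 0.987, so its direction turned. From small pre-B to mature B cells 14, 23 and 30 members were at least 1.5-fold higher (of 81, 81 and 80), beside 17.5%, 14.6% and 23.6% of all genes. From pro-B to small pre-B cells 21 of 81 members were lower in 1d and 42 of 80 in 7d, beside 22.5% and 36.1% of all genes. The 14 members in Ctrl and the 21 in 1d lie near those background shares.

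Erythroid cells were ordered by haemoglobin, whose RNA fills the maturing red cell. In 1d the member share was 32.2% in 7 cells with under 10% haemoglobin UMIs, 17.5% in 27 cells up to 30%, 9.08% in 15 up to 50%, 2.15% in 21 up to 70% and 0.623% in 24 above. In 7d the same bins held 29.0% (3 cells), 16.4% (33), 7.78% (62), 2.37% (145) and 0.666% (129). Haemoglobin takes up the denominator by construction. Of the UMIs that were not haemoglobin, the members still went from 32.7% to 3.04% in 1d and from 30.2% to 2.93% in 7d. The 2 libraries held similar shares bin by bin, while the class as a whole held 12.8% in 1d and 5.11% in 7d.

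Between the irradiated libraries and Ctrl, 14 classes had at least 30 cells in both. The 1d and 7d comparisons share the Ctrl library. The member share was higher in 7 and lower in 7 at 1d, and higher in 8 and lower in 6 at 7d, with median ratios of 1.005 and 1.006 and ranges of 0.461 to 1.251 and 0.476 to 1.30. The lowest ratios were in immature neutrophils and the highest in monocytes.

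In neutrophil precursors the share was 17.3% in Ctrl, 7.98% in 1d and 8.24% in 7d, ratios of 0.461 and 0.476. Both irradiated libraries lay far below Ctrl. Of 81 members, 72 were at least 1.5-fold lower in 1d and 65 in 7d, beside 10.9% and 12.9% of all genes lower by that much. The median member had a log2 ratio of -1.13 and -1.08, with all genes at 0.14 and 0.23. The largest reductions included Rps20, at 5867, 1877 and 1630 CPM in Ctrl, 1d and 7d, and Rpl10a, at 1651, 521 and 543 CPM. Elongation factors and other TOP mRNAs were lower too, 9 and 10 of 17 past 1.5-fold, led by Eef1b2 (ratios 0.307 and 0.330). Of the initiation factors, 1 of 24 and 2 of 23 were lower.

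The stage of these precursors also differed between libraries, and its part in the result was not tested. The 7 precursor markers summed to 102697, 130380 and 128266 CPM in Ctrl, 1d and 7d, the 6 progenitor markers to 1785, 1124 and 891 CPM, and the 10 mature markers to 3757, 2298 and 2204 CPM. The 11 erythroid markers summed to 1547, 1286 and 5010 CPM. The Ctrl class held 42 cells with a median of 23604 UMIs, against 378 with 15888 and 174 with 12804. Without haemoglobin, immunoglobulin, mitochondrial and granule genes in the denominator the ratios were 0.564 and 0.551.

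Cluster 6 showed the same direction, with 7.92%, 4.17% and 4.28% in Ctrl, 1d and 7d and ratios of 0.526 and 0.540. At least 1.5-fold lower were 69 of 81 members in 1d and 62 of 80 in 7d, beside 17.8% and 24.3% of all genes. Of the elongation and TOP list 13 of 17 were lower at both times. Its precursor markers summed to 80175, 110035 and 106768 CPM, its mature markers to 23918, 17988 and 19789 CPM, and erythroid markers to 3298, 829 and 803 CPM, and their part was not tested. In mature neutrophils the ratios were 0.982 and 1.02, with 2 of 81 and 2 of 80 members lower (8.35% and 18.5% of all genes) and 0 and 3 higher (7.93% and 24.8%). Most mature neutrophils of Ctrl were in cluster 4 (1779 of 2679) and most of 1d in cluster 5 (274 of 427). The 2 clusters went opposite ways. The share was 2.63%, 2.72% and 3.68% in cluster 4 (ratios 1.03 and 1.40) and 2.85%, 2.66% and 2.35% in cluster 5 (0.935 and 0.823), with 76 and 87 cells of 7d.

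Granulocyte progenitors, the stage before, had ratios of 0.837 and 0.911, with 2 of 81 members lower at each time (4.81% and 4.92% of all genes). The Ctrl value rests on 31 cells. The median gene of this class had a log2 ratio of 0.13 and 0.31 and the median member -0.24 and -0.14. The share ratios of progenitors and of mature neutrophils were thus nearer to 1 than those of the 2 stages between them.

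Monocytes went the other way. The share was 15.97% in Ctrl, 19.99% in 1d and 20.7% in 7d, ratios of 1.251 and 1.30, and 80 of 81 members in 1d and 79 of 81 in 7d had a ratio above 1. Past 1.5-fold were 7 and 13 of 81, beside 13.2% and 18.7% of all genes. The median member had a log2 ratio of 0.34 and 0.38 against 0.08 for the median gene at each time, so the members were higher together by a modest amount. Rpl35, a large subunit protein near the exit of the peptide tunnel, was at 1115, 1775 and 1893 CPM. Rpl39, which lies in the tunnel wall, was at 2230, 3572 and 3498 CPM. Of the elongation and TOP list 4 of 17 passed 1.5-fold at each time. Monocytes of Ctrl had a median of 3362 UMIs per cell and those of 1d and 7d 6157 and 5533. With each cell thinned to 1000 UMIs the direction was the same. Thinning leaves the expected share of a cell unchanged, so it cannot decide on depth, whose part was not tested.

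Mast cells and basophils held 19.2%, 20.4% and 24.5%, and 23 of 80 members were at least 1.5-fold higher in 7d, beside 32.2% of all genes. Cluster 16, the osteoblast-led stromal cluster, held 14.1%, 13.8% and 11.1%. At 7d 12 of its 81 members were lower past 1.5-fold, beside 21.6% of all genes. Both counts lie below the share of all genes that differed. NK cells had a share ratio of 1.17 in 1d, from 49 cells, and of 1.02 in 7d. At 1d the median member had a log2 ratio of 0.25 and the median gene -0.04, and 1 of 80 members was higher past 1.5-fold, beside 5.26% of all genes.

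Within the members' own UMIs, Rps19 was lower in both irradiated libraries in all 14 classes, with a median log2 shift of -0.32 at 1d and -0.45 at 7d. Rps19 encodes a protein of the small subunit head needed to mature the 18S rRNA. The difference was largest in neutrophils. Mature neutrophils had 646, 170 and 113 CPM in Ctrl, 1d and 7d (4055, 216 and 42 UMIs). The ratios were 0.263 (95% interval 0.228 to 0.302) and 0.175 (0.126 to 0.237). Erythroid markers in mature neutrophils summed to 10579, 1268 and 1645 CPM and precursor markers to 6274, 13281 and 9854 CPM, and their part in the Rps19 difference was not tested. For Rps19, cluster 6 had 2454, 450 and 471 CPM and neutrophil precursors 4143, 1335 and 1414 CPM. T cells had 6581, 5817 and 5271 CPM and monocytes 3103, 3329 and 3254 CPM.

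The summed member share of mature neutrophils was 2.73%, 2.68% and 2.78%, and Rps19 was 2.37%, 0.634% and 0.407% of it. Rps19 was lower in each of the 2 mature neutrophil clusters, at 529, 138 and 166 CPM in cluster 4 and 799, 181 and 88.0 CPM in cluster 5. Barcodes that were not kept and had over 50% haemoglobin UMIs had 0.290%, 0.339% and 0.452% member UMIs. Rps19 was 2.12%, 0.934% and 1.29% of these. The share of Rps19 in that RNA was thus highest in Ctrl too, and its part in the neutrophil result was not tested.

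**Figure D4:**
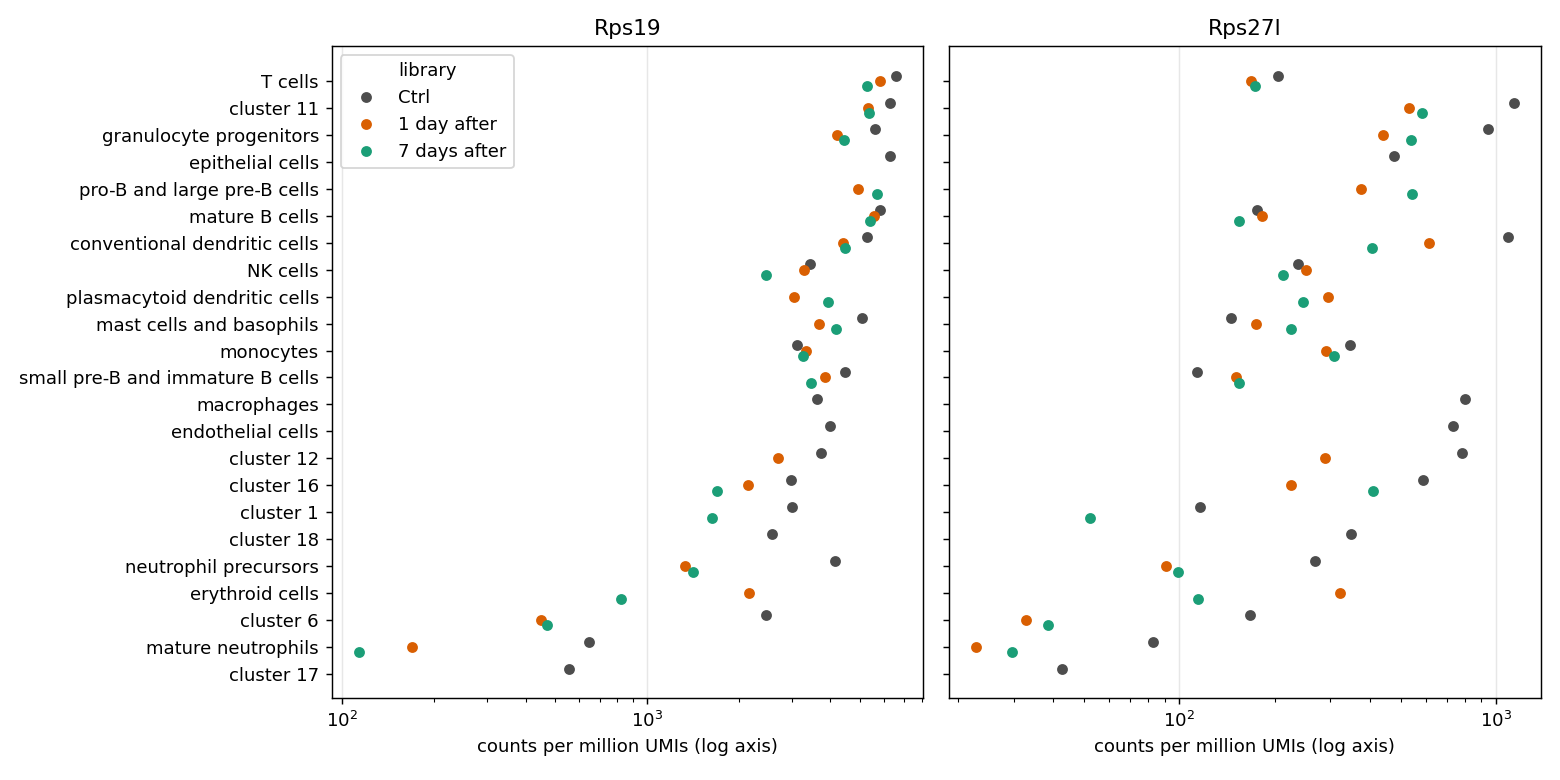
Levels of Rps19 and Rps27l (CPM) per cell class, with 1 point per library. Rps19 in mature neutrophils is 646 CPM in Ctrl against 170 and 113 CPM in 1d and 7d, while its T cell levels lie between 5271 and 6581 CPM.

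Rps27l, a paralogue of Rps27 that p53 is known to induce, was also lower in the irradiated libraries in most classes. Granulocyte progenitors had 941, 441 and 539 CPM in Ctrl, 1d and 7d, and cluster 11 had 1137, 531 and 583 CPM. Mature neutrophils had 82.5, 22.8 and 29.7 CPM, from 518, 29 and 11 UMIs. In cluster 16 the levels were 586, 226 and 410 CPM, so 7d lay between the others. T cells had 205, 169 and 174 CPM and mature B cells 177, 182 and 155 CPM, so these lymphocytes differed less. Rps27l was lower within the members in 12 of 14 classes at 1d, with a median log2 shift of -0.71.

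Some members shifted the same way in all classes at once. Of 79 members tested in all 14 classes at 1d, 2 were higher in every class, Rpl21 and Rpl35, beside 1.21% of the 579 genes so tested, members included. Lower in every class were Rps19, Rps10, Rpl23 and Rps24, beside 0.864%. At 7d 6 of 77 were higher in every class (3.8% of 184 genes) and 11 lower (6.52%). These genes are measured against the summed members, so members must lie on both sides. Of all genes so tested, 7 were higher and 5 lower at 1d, and 7 higher and 12 lower at 7d. Apart from those higher at 1d, most of these were the members themselves. The all-gene shares are thus not a background of other genes. Rps15, whose tail lies near the decoding site, led the higher ones with a median log2 shift of 0.62. It had 1917, 1865 and 3027 CPM in T cells and 1691, 1549 and 2668 CPM in mature B cells, so Ctrl and 1d lay close together and 7d stood apart. After it came Rpl38 (0.47), Rps28 (0.41), Rps29 (0.35), Rps21 (0.29) and Rpl35 (0.26). Rps2 (-0.45), Rps19 (-0.45), Rps20 (-0.41) and Rps27a (-0.34), the last made as a fusion with ubiquitin, led the lower ones. A shift in every class of 1 library cannot be told apart from a property of that library.

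**Figure D5:**
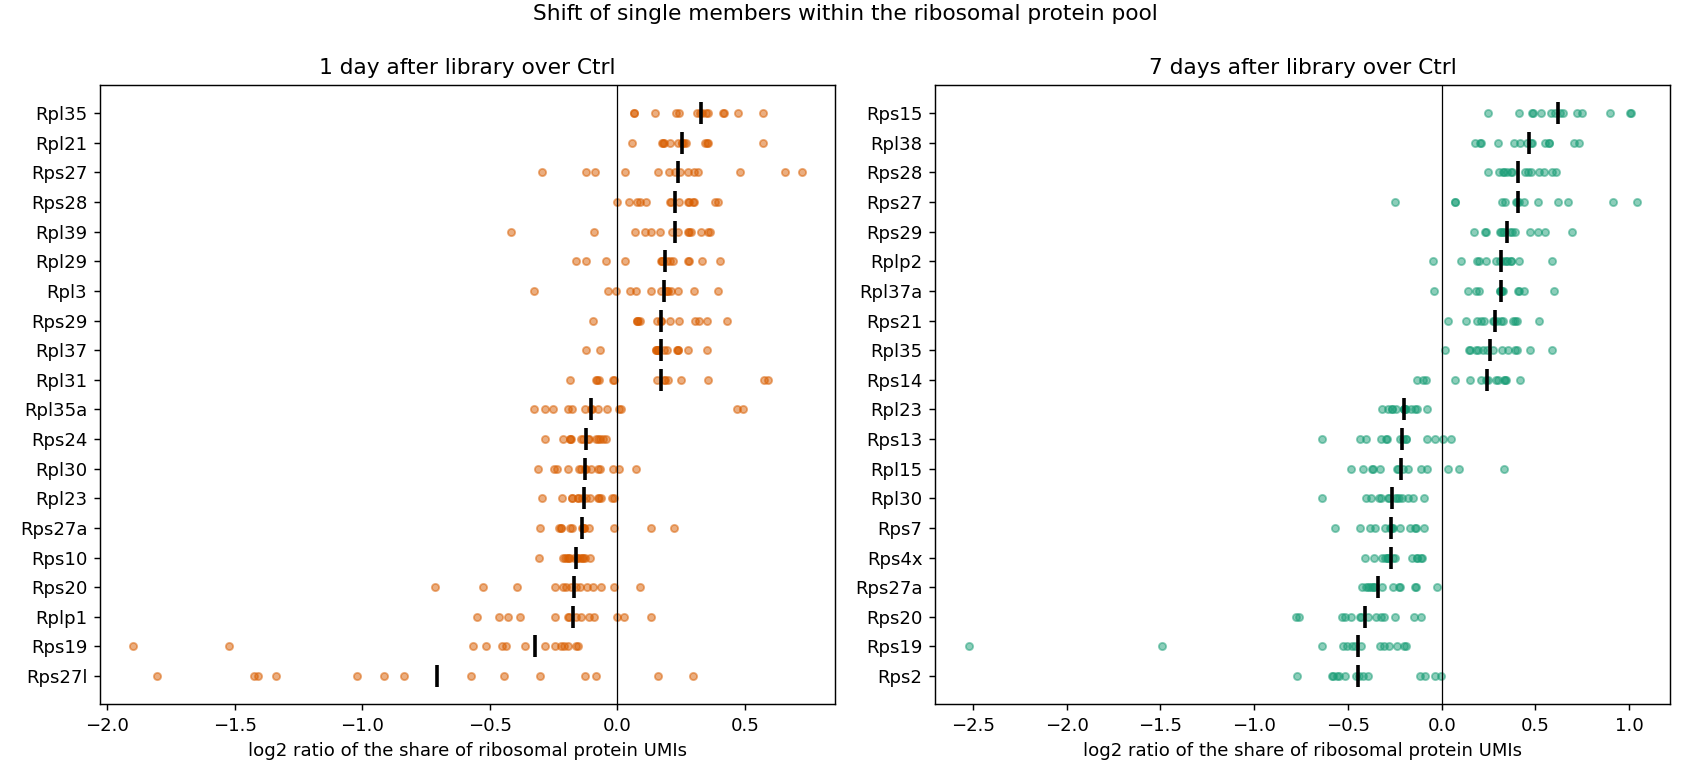
Log2 difference from Ctrl in each member's share of the members' UMIs (x axis), for the 10 lowest and 10 highest members by median at 1d and at 7d. Points are classes and bars are medians. All points of Rps19 lie below 0 in both panels, and all points of Rps15 lie above 0 at 7d.

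Transcript length moved with the 7d shift. Across 77 members the shift had a Pearson r of -0.46 and a Spearman rho of -0.39 with log2 length, against -0.09 for both over 79 members at 1d. These are descriptions over genes of shared libraries. The 20 shortest members at 7d (up to 526 bases) had a median shift of 0.16 and the 20 longest (946 bases or more) of -0.07. The lengths came from the annotated principal transcripts, and the cause of the relation was not tested.

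Across classes within a library, the members were no fixed mixture either. Over 13 classes present in all libraries, each member's share of the members' UMIs was compared between a high and a low class. These were the classes with its highest and lowest mean over the same 3 libraries, a choice that favours large ratios. In all 3 libraries 28 of 81 members differed at least 2-fold between them. The smallest ratio of 23 members stayed under 1.5-fold. The share of all genes on this measure was not computed. By CPM, 80 of 81 were at least 2-fold apart, beside 62% of all genes. Rps27, Rps18, Rps9, Rpsa, Rpl32, Rps20, Rpl36a and Rps27a differed most, at least 6.33-, 5.44-, 5.13-, 4.55-, 4.24-, 3.92-, 3.47- and 3.29-fold, and mature neutrophils were one end for each. Rps27 was also high in lymphocytes, at 8998, 10255 and 11336 CPM in T cells. Over 54 class and library sums, Rpl18 (r = 0.993), Rpl27a (0.9901) and Rpl17 (0.989) tracked the summed members most closely on the log2 scale. Rps9 (0.7996), Rps27 (0.749) and Rps27l (0.715) were among those that tracked them least.

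Of 8 paralogue genes, 7 had a row. Rpl10l, known from testis, had 0 UMIs in all kept cells. Rpl39l, another paralogue known from testis, had 213 UMIs, 95 in cluster 12 and 55 in cluster 16, so most lay in stromal clusters. Rpl7l1 had 5028 UMIs, Rps27l 38533, Rpl36al 70435 and Rpl22l1 84380. Rpl22l1, the paralogue of Rpl22, was at 1733, 1113 and 1009 CPM in cluster 11 of Ctrl, 1d and 7d, ratios of 0.642 and 0.582. Rpl22l1 in cluster 16 was at 1022 CPM in Ctrl and 553 CPM in 7d.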

How the data were processed

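UMI counts per gene and cell were used as the authors deposited them in 3 matrices, made with Cell Ranger 6.1.1 per the file headers. CASAVA 1.8, Cell Ranger, Seurat and mm10 are named in the submitters' processing notes. No source used here gives the annotation release or the cell calling rule. Cells with at least 500 UMIs, 250 genes and at most 15% mitochondrial UMIs were kept, and Scrublet (scanpy 1.11.5) removed 275, 210 and 338 doublets. In 1d and 7d its automatic threshold marked under 0.5% of cells, so the highest scores were removed at 0.8% per 1000 barcodes. The top 2000 variable genes, without the members, were reduced to 30 principal components, and a graph of 15 neighbours was split by Leiden (resolution 1, leidenalg 0.10.2). A class could name a cluster where at least 3 of its markers had a log2 of 1 or more over other cells and were detected in 10% of cells. The mean log2 of its markers had to reach 0.95. Its markers also had to be among the 10 leading genes, or 60% had to pass with a mean log2 of 1.5. A cluster with more leading genes from another class's markers was left unnamed, as were shallow clusters without a leading marker.

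UMIs were summed per class and library. Shares and ratios carry exact 95% intervals, and classes with at least 30 cells and genes with at least 100 UMIs over both sums were compared. A member counted as different past 1.5-fold, and the same count over all genes is given beside it. Depth was a median of 2416, 5038 and 3826 UMIs per cell. The members, lists and markers were chosen with earlier results of these data known. Members named were the 5 with most UMIs, the paralogues, up to 3 per side whose interval lay furthest from a ratio of 1, up to 8 that differed most between classes, and the closest and least close to the summed members. Rpl10a and Rps18 as extremes of the neutrophil course, and other genes outside that rule, were picked after their values were seen. Software was Python 3.11.15, numpy 2.4.6, scipy 1.17.1 and edgeR 4.0.16, whose TMM factors served as an alternative. The ratio script was tested on simulated counts. Alternatives were other cell filters, doublets kept, other resolutions, thinning, another denominator, 5% free RNA subtracted, TMM, other folds and UMI minima.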

Additional observations from a re-analysis of the deposited data

Results flagged for a closer look

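In 3 classes the member share lay on opposite sides of Ctrl in 1d and 7d, and this difference was not tested. The log2 ratio was 0.0339 at 1d and -0.0884 at 7d in small pre-B and immature B cells. It was -0.0265 and 0.0284 in mature neutrophils, and -0.0777 and 0.00653 in cluster 11. All 6 values are small beside the ratios of immature neutrophils and monocytes. Some barcodes with over 50% haemoglobin UMIs were not kept. They held members at 0.290% of UMIs in Ctrl, 0.339% in 1d and 0.452% in 7d. That is 4.45, 10.7 and 20.4 member UMIs per barcode. No control without cells was at hand to set beside these values.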

How the results depend on the processing

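No paired analysis was possible because each group has 1 library, so no replicate could be left out either. Granulocyte progenitors stood over 5-fold above mature neutrophils in all 3 libraries under every alternative that gave a value (8.82- to 15.2-fold in Ctrl, 8.92 to 13.4 in 1d, 8.76 to 15.3 in 7d); resolution 0.5 formed no progenitor class and gave none. Over the alternatives the ratio of the share to Ctrl lay between 0.432 and 0.564 (1d) and 0.422 and 0.564 (7d) in neutrophil precursors, 0.465 and 0.636 and 0.446 and 0.647 in cluster 6, and 1.15 and 1.26 and 1.22 and 1.33 in monocytes. Mature B over small pre-B cells in Ctrl, from 42 small pre-B cells, ranged from 0.987 to 1.37. Rps19 in mature neutrophils kept its direction, with ratios of 0.0445 to 0.277 and 0.00282 to 0.183, the lowest after subtracting 5% free RNA, which leaves few counts. The share of cluster 1 in 7d, led by haemoglobin genes, reversed to a log2 ratio of 0.11 with the denominator without haemoglobin, immunoglobulin, mitochondrial and granule genes and 0.29 with TMM factors.

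Over all classes 13 member and class pairs were at least 1.5-fold higher and 150 lower in 1d than Ctrl, and 54 and 165 in 7d. Each of the 14 classes had 79 to 81 members compared at 1d and 77 to 81 at 7d. By class, 3.47% to 19.4% of all genes were higher and 3.59% to 22.2% lower at 1d. At 7d 7.97% to 32.2% were higher and 4.92% to 34.2% lower. Most of the lower pairs came from 2 classes. Neutrophil precursors held 72 and 65 of them (10.9% and 12.9% of all genes) and cluster 6 held 69 and 62 (17.8% and 24.3%). Of the 54, mast cells and basophils held 23, where 32.2% of all genes were higher. The 13 became 8 with the stricter filter, 88 with no filter and 21 with thinned cells, and the 54 became 139 with no filter. With a lower fold threshold the counts higher were 127 and 188 and the count lower in 7d was 295, and with a fold of 2 they were 0 and 4 higher and 85 and 85 lower. Per member UMIs instead of all UMIs, 15 and 21 were lower. Classes with a higher share in 7d numbered 8, and 5 with free RNA subtracted. Members at least 2-fold apart between classes numbered 28, then 14 with at least 500 UMIs, and 50 and 13 at a lower and a higher fold. They numbered 80 per all UMIs, beside 62% of all genes on that last measure. The causes of these changes were not tested beyond what each setting does by construction. For the named members, 73 values lay past 1.5-fold, each a member in a class and contrast or its ratio between classes. Their 1056 recomputed values all kept their sign. Settings that change only the fold leave these values as they are, and a ratio of highest to lowest class is chosen to lie above 1. The kept signs are therefore in part fixed by construction.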

Other observations

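Genes that build ribosomes and the ribosomal proteins lay on opposite sides of Ctrl in granulocyte progenitors and neutrophil precursors, at 1d and at 7d. The Ctrl sums of these classes rest on 31 and 42 cells. In some other classes they did so at 1d or 7d alone, such as mature B cells of 7d (ratios of 0.705 for biogenesis and 1.05 for members). Both groups of genes lay on the same side in monocytes and in cluster 16 of 7d. In neutrophil precursors the summed biogenesis share had ratios of 1.36 in 1d and 1.70 in 7d, where the members had 0.461 and 0.476. In granulocyte progenitors of 7d, 25 of 36 biogenesis genes were at least 1.5-fold above Ctrl, while the members' share was slightly lower there. Myc, a transcription factor that drives ribosome production, had a ratio of 7.33, Tsr1, a small subunit assembly factor, 5.27 and Ncl, the nucleolar protein nucleolin, 1.87. Of the initiation factors 12 of 24 were higher past the same fold and 0 lower. Of all genes in that comparison 30.3% were higher by that much. In monocytes the summed biogenesis share had ratios of 1.255 and 1.43 to Ctrl, where the members had 1.251 and 1.30. In cluster 16 of 7d the 2 ratios were 0.507 and 0.788. There, 19 of 25 biogenesis genes were lower (21.6% of all genes), among them Tsr1 at a ratio of 0.146, Nolc1 at 0.287 and Gnl3 at 0.383. Initiation factors were lower there in 13 of 24.

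Cells thinned to 1000 UMIs were called cycling where 2 or more of 6 cycling genes had a UMI. The members' share of all UMIs was lower in cycling cells than in other cells of their class in some classes and higher in others. In granulocyte progenitors the shares were 21.5% in cycling and 26.2% in other cells of 1d, and 24.5% and 28.2% in 7d. In cluster 11 of 1d they were 25.03% and 30.1%. In erythroid cells they were 17.8% and 5.41% in 1d and 7.83% and 2.56% in 7d, so there the cycling cells had the higher share. The erythroid shares include haemoglobin in the denominator.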
